A study of Homo sapiens with 9 samples.

Results

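MHC class I molecules carry peptides from proteins made inside the cell to its surface, where CD8 T cells and natural killer cells read them. Poly-A RNA-seq counts of 9 genes of this pathway were examined in MCF10A human mammary epithelial cells and in a pair of lines transformed from them. The 9 genes were taken by symbol from the count table: the heavy chain genes HLA-B, HLA-C, HLA-E and HLA-F, the light chain gene B2M, the peptide transporter genes TAP1 and TAP2, the proteasome subunit gene PSMB9 and the class I transactivator gene NLRC5. The table held 60199 symbols, of which 29997 had at least 1 count, and all 9 genes were among the 15717 genes that passed the filter on low counts and were tested.

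Each of 3 lines was represented by 3 independently grown cultures, and each culture gave 1 library. CT was parental MCF10A, a nonmalignant line deleted for CDKN2A, with no added cytokine and labelled not transformed. MC26 came from unsorted MCF10A cells kept for a long time in BMP2 and IL6 (5 and 10 ng/microliter by the labels, while the methods of the study state another concentration). M1B26 started from a BMPR1B-positive sort of MCF10A cells, BMPR1B being a BMP receptor, that was kept in the same cytokines. To make it, 3 clones picked from soft agar were expanded. The study reports that the sorted cells transformed within a few weeks, so the time in cytokines may also differ from MC26. Sorting, clonal selection and time in cytokines cannot be told apart from each other in M1B26. Against CT, the cytokines and the transformation cannot be told apart in either line. The series describes the libraries as independent cultures, and whether the M1B26 libraries are the 3 clones or cultures of their pool is not given. The p-values below thus measure the spread between cultures, which in M1B26 may include that between clones. They do not measure the spread between separate derivations of a line. The comparisons asked how the transformed lines differed from the parental cells and from each other.

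In background, the proteasome cuts cytosolic proteins into peptides, and interferon induces the subunits PSMB8, PSMB9 and PSMB10, which take the places of PSMB5, PSMB6 and PSMB7 and so make the immunoproteasome. The TAP1 and TAP2 proteins form the channel that moves peptides into the endoplasmic reticulum, where tapasin (TAPBP) helps to load them onto a heavy chain paired with B2M and the aminopeptidases ERAP1 and ERAP2 trim them. NLRC5 joins the RFX proteins on a shared promoter module of class I genes, and IRF1 and NF-kB act on interferon-stimulated response elements (ISRE) and NF-kB sites beside it. Epithelial cells carry class I without exposure to interferon, whereas class II is mostly restricted to professional antigen-presenting cells.

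Of these genes, 7 lie in the MHC on chromosome 6 (GRCh38, GENCODE annotation). HLA-F (chr6:29722775-29738528) comes first, followed by HLA-E (chr6:30489509-30494194), HLA-C (chr6:31268749-31272130), HLA-B (chr6:31353872-31367067), TAP2 (chr6:32821833-32838739), PSMB9 (chr6:32844136-32859851) and TAP1 (chr6:32845209-32853816). B2M lies on chromosome 15 (chr15:44711358-44718851) and NLRC5 on chromosome 16 (chr16:56989485-57083531). The promoter stretches below show which regulatory letters each gene has beside its start site, and none of the motifs was found in all of them. They run from base -200 to base -31 before the RefSeq start (GRCh38.p14) and were found for 7 of the 9 genes, with none here for HLA-E and NLRC5. For TAP1, which has 2 starts in that table, the upstream one was taken. Each stretch is written 5′ to 3′ on the strand of its gene. Capitals mark matches on either strand to the ISRE core (GAAA, any 2 bases, GAAA), to a shorter ISRE-like run (GAA, any 2 bases, GAAA), to the NF-kB consensus site and to the core of the cyclic AMP response element (TGACG), and where matches overlap the capitals run together.
B2M, chr15:44711317-44711486, plus strand: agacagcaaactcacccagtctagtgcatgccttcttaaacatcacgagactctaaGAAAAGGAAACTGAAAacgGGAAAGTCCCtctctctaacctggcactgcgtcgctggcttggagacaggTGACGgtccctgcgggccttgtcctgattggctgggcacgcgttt
HLA-B, chr6:31357210-31357379, minus strand: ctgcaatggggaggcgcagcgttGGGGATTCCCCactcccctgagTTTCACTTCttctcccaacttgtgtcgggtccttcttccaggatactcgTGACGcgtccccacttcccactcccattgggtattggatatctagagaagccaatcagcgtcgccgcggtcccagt
HLA-C, chr6:31272123-31272292, minus strand: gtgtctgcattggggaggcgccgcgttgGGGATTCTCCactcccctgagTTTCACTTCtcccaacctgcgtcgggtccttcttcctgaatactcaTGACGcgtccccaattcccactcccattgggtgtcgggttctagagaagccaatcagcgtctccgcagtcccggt
HLA-F, chr6:29723234-29723403, plus strand: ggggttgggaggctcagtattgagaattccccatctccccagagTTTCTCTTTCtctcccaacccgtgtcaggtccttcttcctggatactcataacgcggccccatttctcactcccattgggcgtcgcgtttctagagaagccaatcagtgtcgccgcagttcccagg
TAP1, chr6:32853735-32853904, minus strand: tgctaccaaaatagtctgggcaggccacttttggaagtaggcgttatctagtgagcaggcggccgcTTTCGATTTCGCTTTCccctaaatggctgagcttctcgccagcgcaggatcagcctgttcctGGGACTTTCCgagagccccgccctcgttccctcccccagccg
TAP2, chr6:32838770-32838939, minus strand: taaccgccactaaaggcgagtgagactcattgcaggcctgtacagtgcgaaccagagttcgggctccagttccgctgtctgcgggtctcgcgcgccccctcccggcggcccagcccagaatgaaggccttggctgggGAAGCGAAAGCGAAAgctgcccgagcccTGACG
PSMB9, chr6:32853992-32854161, plus strand: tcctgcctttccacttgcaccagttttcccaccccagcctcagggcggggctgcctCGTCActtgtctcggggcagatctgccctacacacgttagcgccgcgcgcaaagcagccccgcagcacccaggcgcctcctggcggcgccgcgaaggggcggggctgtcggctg

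Over the 250 bases before the start, the ISRE core was found in 4 of the 7 genes (HLA-F, B2M, TAP1 and TAP2) and in 3.02% of 35116 RefSeq promoters. The shorter ISRE-like run was found in HLA-B, HLA-C and TAP2, against 6.56% of promoters, and in TAP2 it overlaps the ISRE core. An NF-kB site was found in HLA-B, HLA-C, B2M and TAP1, against 9.96%. The letters TGACG were found in 5 of the 7 genes, against 21.2%. The CCAAT box, which is not in capitals, was found in 6 of the 7 against 32.0%. TAP1 and PSMB9 start 488 bases apart and are transcribed away from each other. The ISRE core and NF-kB matches of TAP1 lie between these starts, outside the 250 bases read before PSMB9. A match describes letters and is no measure of binding, and no binding was measured in these cells.

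Total counts ran from 21425118 (CT replicate 2) to 80076597 (CT replicate 3), so 1 count stood for 0.0122 to 0.0437 counts per 1000000 (CPM, scaled by TMM factors of 0.968 to 1.07). Log2 CPM of libraries of a line correlated over genes at 0.982 to 0.998, and their counts differed by more than sampling noise in every pair (chi-square per degree of freedom 9.70 to 53.0). The summed level of 12 mammary epithelial markers was 8823 to 10762 CPM in CT, 11877 to 15750 in MC26 and 10152 to 10584 in M1B26. Of 11 tested, 5 were higher and 4 lower in MC26 than in CT (KRT14 by a log2 fold change of 4.34 and EPCAM at -2.25), and 4 were higher and 3 lower in M1B26 (KRT14 by 3.33 and CDH1 at -0.79). Over all tested genes, 18.8% were higher and 19.9% lower in MC26 than in CT, and 25.2% and 23.7% in M1B26. The leukocyte markers CD3E, MS4A1 and NKG7 had no count in any library and PTPRC stayed at or below 0.0286 CPM. The summed leukocyte list was higher in the transformed lines (15.1 to 20.2 CPM in CT, 34.7 to 37.0 in MC26 and 57.3 to 81.1 in M1B26), with nearly all of it from CD14 and CD68. The summed fibroblast list was 37.4 to 37.8 CPM in CT, 17.1 to 56.8 in MC26 and 28.5 to 39.9 in M1B26, and 2 of its 4 tested genes were higher in M1B26 than in CT (LUM by 5.59 and COL1A1 by 0.98). The summed endothelial list was 8.15 to 8.25, 2.19 to 3.76 and 3.65 to 6.59 CPM. Of its 3 tested genes, 1 was higher and 2 were lower in MC26 than in CT. In M1B26 against CT, 1 was higher and 1 lower. PECAM1 was at -4.21 in MC26 and -2.45 in M1B26 against CT. The part of these markers in the results below was not tested.

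Against CT, 5 of the 9 genes were higher in MC26 (HLA-B, HLA-C, HLA-E, TAP2 and PSMB9) and none was lower, where 18.8% of all tested genes were higher and 19.9% lower at an edgeR adjusted p under 0.05. In M1B26, 8 of the 9 were higher than in CT and none was lower, against 25.2% and 23.7% of all genes, and NLRC5 was the gene not called. Between the transformed lines, 3 were higher in M1B26 (HLA-F, B2M and TAP1) and 1 was lower (TAP2), against 21.2% and 18.4% of all genes. The median log2 fold change of the 9 genes was 0.25 in MC26 and 0.55 in M1B26 against CT and 0.11 between the transformed lines, where the median of all tested genes was 0.00 in each comparison. The 3 libraries of a line stood clear of the other line in 5 genes higher and 0 lower in MC26 against CT (24.6% and 25.8% of all tested genes), in 8 higher and 1 lower in M1B26 against CT (30% and 29%) and in 3 higher and 1 lower in M1B26 against MC26 (27.8% and 25.6%). Both comparisons with CT used the same 3 CT libraries, so they are not independent of each other. With total counts in place of TMM factors, the share of higher genes among all called genes was 35.8% instead of 48.5% in MC26 and 39.6% instead of 51.5% in M1B26, the median of all genes was -0.08 and -0.09 on the log2 scale, and NLRC5 was then called lower in M1B26 than in CT. In these bulk samples, more cells expressing a gene and more RNA per cell cannot be told apart.

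**Figure D1:**
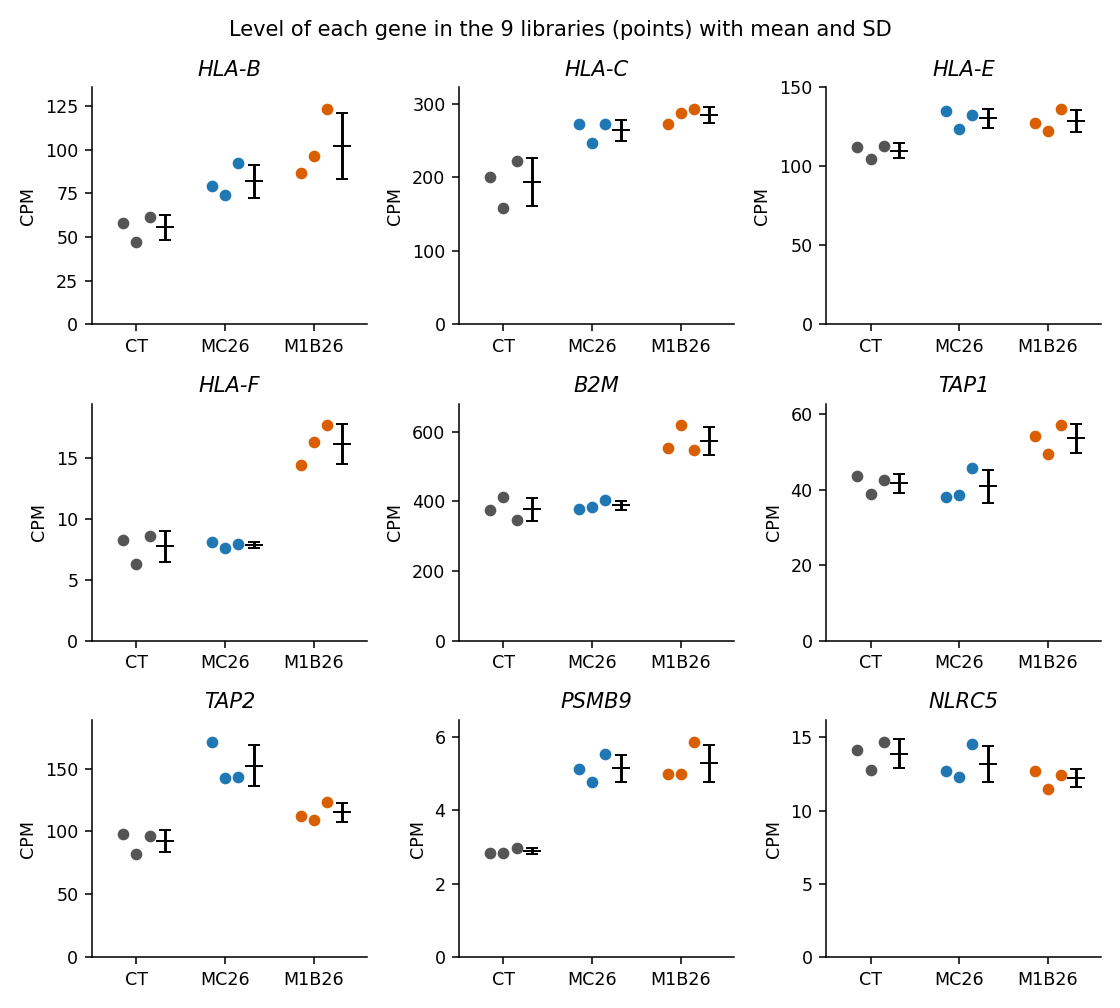
Level of each of the 9 genes in CPM (vertical axes, from 0) in the 3 libraries of CT, MC26 and M1B26 (points), with the mean and SD of each line beside them. HLA-B, HLA-C, HLA-E, TAP2 and PSMB9 lie above CT in both transformed lines, HLA-F, B2M and TAP1 lie above CT in M1B26 while their MC26 points overlap CT, and the points of NLRC5 stay between 11.5 and 14.7 CPM.

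The heavy chain HLA-B, a classical class I molecule that presents peptides to CD8 T cells, had 58.0, 47.2 and 61.4 CPM in the CT libraries, 79.1, 74.2 and 92.4 CPM in MC26 and 86.5, 96.6 and 124 CPM in M1B26. Every library of the transformed lines was above every CT library, and MC26 and M1B26 overlapped each other. Means were 55.5 ± 7.40, 81.9 ± 9.45 and 102 ± 19.1 CPM (SD, n = 3 each). The log2 fold change from CT was 0.56 (SE 0.14, edgeR adjusted p = 0.00919) in MC26 and 0.87 (SE 0.14, edgeR adjusted p = 4.33e-04) in M1B26. Between the transformed lines it was 0.32, with a 95% confidence interval of 0.02 to 0.62, and missed the threshold (edgeR adjusted p = 0.0876).

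HLA-C, the other classical heavy chain here and also a ligand of killer cell receptors, had 200, 158 and 222 CPM in CT, 272, 247 and 272 CPM in MC26 and 272, 287 and 293 CPM in M1B26. The CT libraries were the lowest 3 of the 9 and MC26 and M1B26 overlapped. The log2 fold change was 0.44 (SE 0.11, edgeR adjusted p = 0.00731) in MC26 and 0.55 (SE 0.11, edgeR adjusted p = 0.00151) in M1B26 against CT. The difference between MC26 and M1B26 was not detectable, at 0.11 with a 95% confidence interval of -0.13 to 0.34. CT replicate 2, the shallowest library, was the lowest of the CT libraries in all 4 heavy chain genes. Without it the log2 fold changes in MC26 were 0.46 for HLA-B and 0.32 for HLA-C, and both were still called.

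HLA-E, a nonclassical molecule that shows leader peptides of other class I chains to natural killer cells, had 112, 105 and 113 CPM in CT, 135, 124 and 133 CPM in MC26 and 128, 122 and 136 CPM in M1B26. Both transformed lines stood above CT with no overlap, by a log2 fold change of 0.25 in MC26 (SE 0.07, edgeR adjusted p = 0.0141) and 0.23 in M1B26 (SE 0.07, edgeR adjusted p = 0.0158). These were the smallest changes called among the 9 genes, and in each of these comparisons 4 of 18 alternative settings lost the call. Among them were the fits without MC26 replicate 1 for MC26 (edgeR adjusted p = 0.0544) and without M1B26 replicate 3 for M1B26 (edgeR adjusted p = 0.0602). Between the transformed lines the log2 difference was -0.02, with a 95% confidence interval of -0.17 to 0.13.

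HLA-F, a nonclassical chain found mostly inside resting cells, had 8.31, 6.33 and 8.61 CPM in CT, 8.13, 7.63 and 7.93 CPM in MC26 and 14.4, 16.4 and 17.7 CPM in M1B26. The lowest M1B26 library was above the highest library of the other lines, while MC26 fell within the range of CT. The log2 fold change of M1B26 was 1.04 against CT (SE 0.12, edgeR adjusted p = 5.26e-05) and 1.03 against MC26 (SE 0.12, edgeR adjusted p = 1.13e-04). In MC26 against CT it was 0.01, with a 95% confidence interval of -0.27 to 0.28. HLA-F shares 535 exonic bases with the antisense gene HLA-F-AS1, and reads of the pair cannot be assigned without knowing the strand setting. HLA-F-AS1 itself had means of 2.17, 1.46 and 1.92 CPM in CT, MC26 and M1B26.

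The heavy chain genes are highly polymorphic, and the alleles of MCF10A may differ from the reference to which the reads were aligned. In the GENCODE canonical transcripts, runs of 75 bases shared with another gene made up 1.98% of HLA-C and 2.30% of HLA-E, and none of HLA-B or HLA-F. Over all annotated exons, however, HLA-B shares 1421 of 4623 bases with the pseudogene DHFRP2 on the same strand.

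B2M, the invariant light chain needed by every class I heavy chain, had 374, 411 and 345 CPM in CT, 378, 384 and 404 CPM in MC26 and 552, 618 and 547 CPM in M1B26. The 3 M1B26 libraries were the highest of the 9, and MC26 lay within the CT range. Means were 377 ± 33, 389 ± 13.6 and 572 ± 39.8 CPM (SD, n = 3 each). M1B26 exceeded CT by a log2 fold change of 0.60 (SE 0.08, edgeR adjusted p = 1.17e-04) and MC26 by 0.56 (SE 0.08, edgeR adjusted p = 3.59e-04). MC26 against CT gave 0.05, with a 95% confidence interval of -0.13 to 0.22.

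**Figure D2:**
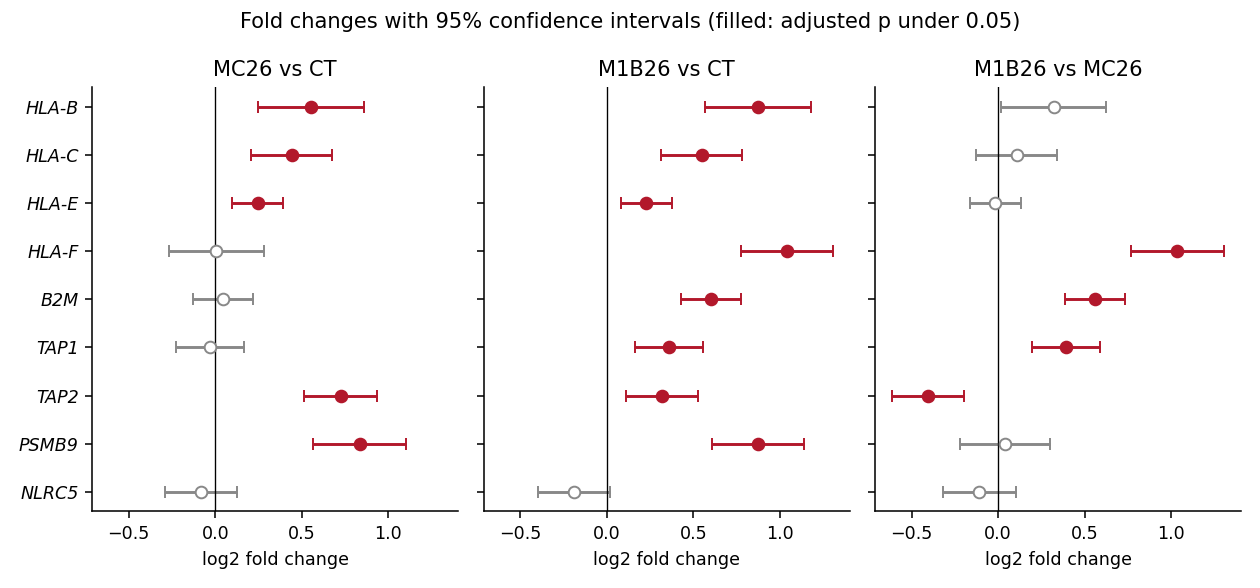
Log2 fold changes (horizontal axes) of the 9 genes in the 3 comparisons with their 95% confidence intervals, filled red where the edgeR adjusted p was under 0.05. HLA-B, HLA-C, HLA-E, TAP2 and PSMB9 are filled in MC26 against CT, every gene but NLRC5 is filled in M1B26 against CT, and HLA-F, B2M and TAP1 are filled to the right and TAP2 to the left in M1B26 against MC26.

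TAP1 had 43.8, 38.9 and 42.6 CPM in CT, 38.3, 38.6 and 45.9 CPM in MC26 and 54.3, 49.5 and 57.2 CPM in M1B26. M1B26 stood above the other lines in every library, and MC26 and CT overlapped. Its log2 fold change in M1B26 was 0.36 against CT (SE 0.09, edgeR adjusted p = 0.00638) and 0.39 against MC26 (SE 0.09, edgeR adjusted p = 0.00565). The MC26 value against CT was -0.03, with a 95% confidence interval of -0.23 to 0.17.

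TAP2, the partner chain of the transporter, followed another order of lines. It had 97.9, 82.0 and 96.4 CPM in CT, 171, 142 and 144 CPM in MC26 and 112, 109 and 124 CPM in M1B26, so that no line overlapped another and MC26 was the highest. The log2 fold change was 0.72 in MC26 against CT (SE 0.10, edgeR adjusted p = 1.90e-04), 0.32 in M1B26 against CT (SE 0.10, edgeR adjusted p = 0.0167) and -0.40 in M1B26 against MC26 (SE 0.09, edgeR adjusted p = 0.00656). The call in M1B26 against CT was lost in 5 of 18 alternative settings. Among them were the fits without CT replicate 2 (edgeR adjusted p = 0.0526) and without M1B26 replicate 3 (edgeR adjusted p = 0.0622). Of the 75-base runs of the TAP2 transcript, 35.0% are shared, nearly all with a readthrough gene on the same strand, so the level of TAP2 depends on how the counting treated such reads.

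The TAP proteins act as a pair, and the ratio of their RNA was read within each library per kilobase of the GENCODE canonical transcript. TAP1 to TAP2 was 0.940, 0.996 and 0.930 in CT, 0.469, 0.571 and 0.672 in MC26 and 1.02, 0.952 and 0.971 in M1B26. The ratio was lowest in the 3 MC26 libraries, while CT and M1B26 overlapped. HLA-C to B2M was 0.236 to 0.393 in CT, 0.393 to 0.440 in MC26 and 0.284 to 0.327 in M1B26, and the M1B26 range fell inside that of CT. The ratio of B2M to the summed heavy chains HLA-B, HLA-C, HLA-E and HLA-F was 1.83, 2.44 and 1.56 in CT, 1.40, 1.56 and 1.46 in MC26 and 2.0, 2.13 and 1.73 in M1B26. Each line thus held more B2M than summed RNA of these 4 chains on this scale, with every MC26 library below every library of the other lines, narrowly so for CT, and CT and M1B26 overlapping.

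PSMB9, the immunoproteasome subunit that replaces PSMB6, had 2.83, 2.84 and 2.98 CPM in CT, 5.12, 4.78 and 5.53 CPM in MC26 and 4.98, 4.99 and 5.87 CPM in M1B26. It was the least abundant of the 9 in CPM, with 65 counts in CT replicate 2 and 183 to 318 counts in the other libraries. Both transformed lines were well above CT and overlapped each other. The log2 fold change against CT was 0.83 in MC26 (SE 0.12, edgeR adjusted p = 3.84e-04) and 0.87 in M1B26 (SE 0.12, edgeR adjusted p = 1.75e-04). Between MC26 and M1B26 it was 0.04, with a 95% confidence interval of -0.22 to 0.30. The ratio of PSMB9 to TAP1 per kilobase was 0.171 to 0.193 in CT, 0.318 to 0.353 in MC26 and 0.242 to 0.271 in M1B26, with no overlap of lines. PSMB9 shares exonic bases with PSMB8 on the opposite strand (139) and with PSMB8-AS1 on its own (174), and TAP1 shares 672 with PSMB8-AS1.

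NLRC5, the transactivator of class I genes, was not called in any comparison. It had 14.2, 12.8 and 14.7 CPM in CT, 12.7, 12.3 and 14.6 CPM in MC26 and 12.7, 11.5 and 12.4 CPM in M1B26. All M1B26 libraries were below the lowest CT library, by a narrow margin, and 29% of all tested genes were lower in M1B26 with no overlap of that kind. The log2 fold change in M1B26 against CT was -0.19, with a 95% confidence interval of -0.40 to 0.02 (edgeR adjusted p = 0.118). In MC26 against CT it was -0.08 (interval -0.29 to 0.13) and in M1B26 against MC26 -0.11 (interval -0.32 to 0.10).

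**Figure D3:**
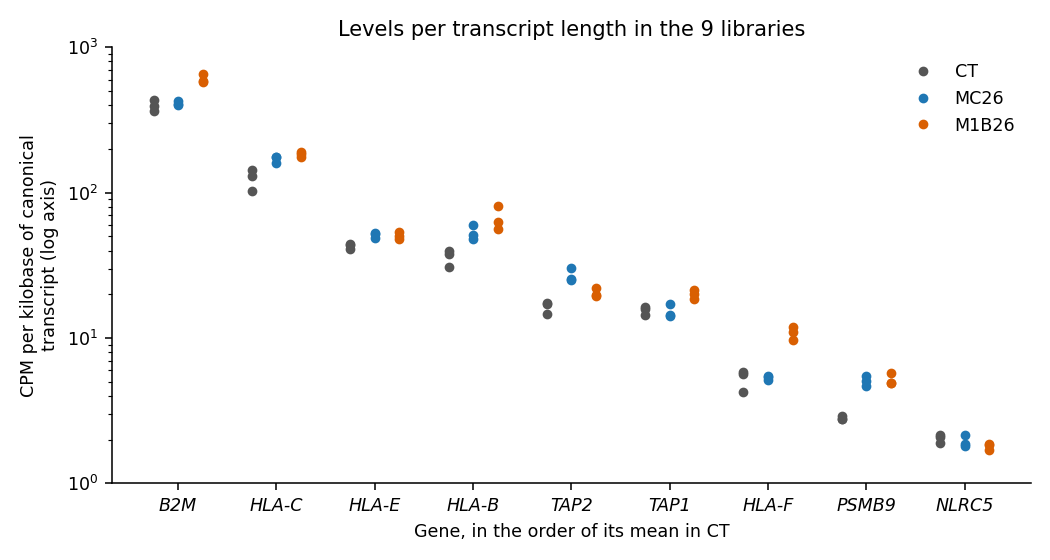
CPM per kilobase of canonical transcript (vertical axis, log scale) of the 9 genes in each library of CT, MC26 and M1B26, with genes in the order of their CT mean. B2M leads in every line and NLRC5 is last, HLA-E and HLA-B change places between CT and the transformed lines, and TAP2 stands clear of TAP1 in MC26 alone.

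Per kilobase of transcript, B2M was the most abundant in every line, with 400 CPM per kilobase in CT, 412 in MC26 and 607 in M1B26, followed by HLA-C with 126, 171 and 184. In CT, HLA-E (43.2) was above HLA-B (36.2) with no overlap. In MC26 the libraries of HLA-B (53.3) and HLA-E (51.2) overlapped, and in M1B26 HLA-B (66.5) was above HLA-E (50.6). TAP2 and TAP1 came next and overlapped in CT (16.3 and 15.5) and in M1B26 (20.4 and 20.0), but not in MC26 (27.0 and 15.2). HLA-F was at 5.24 in CT, 5.34 in MC26 and 10.9 in M1B26, and in MC26 it overlapped PSMB9 (5.06). NLRC5 was lowest, at 2.05, 1.94 and 1.80.

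Of the 54 tested genes in 5 lists of other pathway members, 19 were higher and 9 lower in MC26 than in CT (35.2% and 16.7%), 23 were higher and 11 lower in M1B26 against CT (42.6% and 20.4%), and 15 were higher and 11 lower in M1B26 than in MC26 (27.8% and 20.4%). The shares of all genes given above for the same comparisons were 18.8% and 19.9%, 25.2% and 23.7%, and 21.2% and 18.4%. The lists are described in the order of the pathway, and the counts of each list are to be read beside these shares.

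All 5 genes of the immunoproteasome and its activator (PSMB8, PSMB10, PSME1, PSME2 and POMP) were higher in M1B26 against CT and again against MC26, and the median log2 fold change was 0.53 and 0.32. In MC26 against CT none was higher and 1 was lower, PSME1, a subunit of the proteasome activator PA28, at -0.26 (edgeR adjusted p = 0.0497), with overlapping libraries. PSMB8, the subunit that replaces PSMB5, had means of 37.2, 41.8 and 52.3 CPM in CT, MC26 and M1B26, and its log2 fold change in M1B26 was 0.49 against CT (edgeR adjusted p = 1.68e-04) and 0.32 against MC26 (edgeR adjusted p = 0.00364). PSMB10, the subunit that replaces PSMB7, had means of 20.5, 24.0 and 36.8 CPM, and its values were 0.84 (edgeR adjusted p = 6.29e-05) and 0.62 (edgeR adjusted p = 8.01e-04). In MC26 against CT, where PSMB9 was called, PSMB8 and PSMB10 had 0.17 and 0.22 and missed the threshold (edgeR adjusted p = 0.0722 and 0.107).

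The constitutive subunits PSMB5, PSMB6 and PSMB7 were higher in both transformed lines than in CT. In M1B26 their log2 fold changes were 0.28, 0.75 and 0.48, and in MC26 0.20, 0.20 and 0.41. PSMB6 was also higher in M1B26 than in MC26, by 0.55 (edgeR adjusted p = 1.30e-04). PSMB6 lies on chromosome 17, whose 841 tested genes had a median log2 fold change of 0.47 in M1B26 against CT and 0.48 against MC26, and its share in the PSMB6 value was not tested. The medians of chromosomes 6, 15 and 16, which hold the 9 genes, were 0.01, -0.07 and -0.01 in M1B26 against CT.

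**Figure D4:**
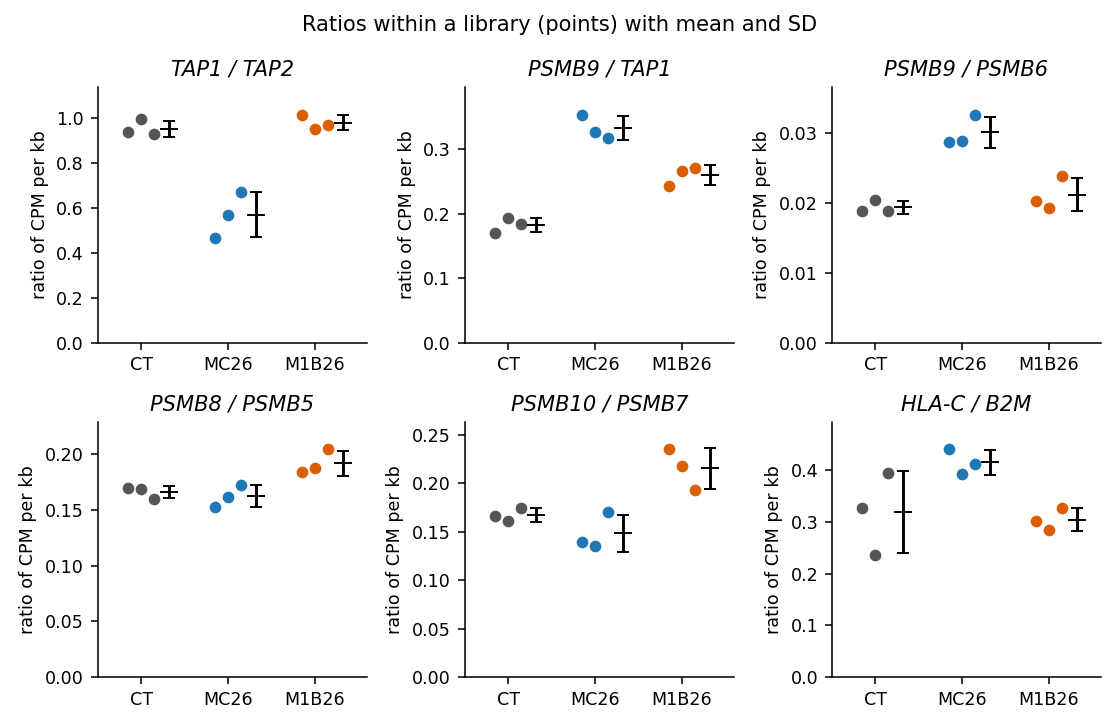
Ratios of CPM per kilobase between 2 genes within a library (points), with the mean and SD of each line, and vertical axes from 0. TAP1 to TAP2 is lowest in MC26, PSMB9 to TAP1 and PSMB9 to PSMB6 are highest in MC26, and PSMB8 to PSMB5 and PSMB10 to PSMB7 are highest in M1B26.

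Each immunoproteasome subunit was set against the subunit it replaces, per kilobase and within each library. PSMB9 to PSMB6 was 0.0188 to 0.0205 in CT, 0.0288 to 0.0327 in MC26 and 0.0193 to 0.0238 in M1B26. The MC26 libraries were thus apart, and CT and M1B26 overlapped. In M1B26 against MC26 the log2 fold change was 0.04 for PSMB9, which was not called, and 0.55 for PSMB6. PSMB8 to PSMB5 was 0.159 to 0.169 in CT, 0.153 to 0.172 in MC26 and 0.183 to 0.204 in M1B26. PSMB10 to PSMB7 was 0.161 to 0.175, 0.135 to 0.170 and 0.194 to 0.235 in the same order. For both of these the M1B26 libraries were the highest and CT and MC26 overlapped. In every library each of the 3 immunoproteasome subunits had less RNA per kilobase than the subunit it replaces.

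Among 11 genes of peptide loading and trimming, 5 were higher and 1 lower in MC26 than in CT. In M1B26, 3 were higher and 2 lower against CT, and 1 higher and 3 lower against MC26. Over all tested genes the shares were 18.8% and 19.9%, 25.2% and 23.7%, and 21.2% and 18.4% in the same order. TAPBP, which encodes tapasin, had log2 fold changes of -0.17, -0.15 and 0.02 in the 3 comparisons and was not called in any. ERAP1 was higher in MC26 than in CT by 0.38 (edgeR adjusted p = 0.0137). It was lower in M1B26 than in MC26, at -0.28 (edgeR adjusted p = 0.0497), with overlapping libraries. ERAP2 was higher than in CT in both lines, by 0.34 in MC26 (edgeR adjusted p = 0.0471) and 0.37 in M1B26 (edgeR adjusted p = 0.0254).

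Of 22 regulators of the pathway, 6 were higher and 5 lower in MC26 than in CT. In M1B26, 3 were higher and 8 lower against CT, and 2 were higher and 6 lower against MC26. Over all tested genes the shares were 18.8% and 19.9%, 25.2% and 23.7%, and 21.2% and 18.4% in the same order. RFX5, which binds the shared class I and class II promoter module, was lower than in CT in both lines, at -0.48 in MC26 (edgeR adjusted p = 0.00148) and -0.42 in M1B26 (edgeR adjusted p = 0.00225). IRF1, an interferon-induced activator of class I promoters, was at 0.26, 0.16 and -0.11 in the 3 comparisons and was not called in any.

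Of 14 listed class I and class I-like genes outside the 9, 13 were tested, and 5 were higher and 2 lower in MC26 than in CT. In M1B26, 9 were higher and 1 lower against CT, and 6 higher and 2 lower against MC26. Over all tested genes the shares were 18.8% and 19.9%, 25.2% and 23.7%, and 21.2% and 18.4% in the same order. CD1D, which presents lipids to NKT cells, had 1 to 5 counts in the CT libraries, 8 to 10 in MC26 and 179 to 348 in M1B26. Its mean was 5.28 CPM in M1B26, against 0.224 in MC26 and 0.0542 in CT, and the log2 fold change against MC26 was 4.55 (edgeR adjusted p = 2.27e-06). FCGRT, the heavy chain of the neonatal Fc receptor, also pairs with B2M. Its means were 0.161, 0.00784 and 1.78 CPM in CT, MC26 and M1B26. Against CT it was lower in MC26 (edgeR adjusted p = 0.00177), while M1B26 was above CT by a log2 fold change of 3.49 (edgeR adjusted p = 6.70e-06). With 251 counts over the M1B26 libraries and 1 over those of MC26, the ratio of these lines was 216 after scaling, with a 95% counting interval of 38.4 to 8553.

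Class II genes were measured at low levels in every line. Their summed level, with that of CIITA, was 1.29 to 1.56 CPM in CT, 2.21 to 2.38 in MC26 and 2.86 to 5.91 in M1B26, and 4 of the 13 were tested. HLA-DRA had no count in CT and a mean of 0.0157 CPM in MC26 and 0.153 in M1B26. HLA-DPA1 was higher in M1B26 than in MC26 by a log2 fold change of 1.32 (edgeR adjusted p = 0.0111), with means of 0.686 and 0.274 CPM, and HLA-DMA by 1.14 (edgeR adjusted p = 0.0127), with means of 0.872 and 0.396 CPM. CIITA, the class II counterpart of NLRC5, was not called in any comparison.

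Of 32 tested interferon-stimulated genes, 13 were higher and 2 lower in MC26 than in CT, 12 higher and 3 lower in M1B26 against CT, and 9 higher and 4 lower in M1B26 than in MC26. The shares of all tested genes were 18.8% and 19.9%, 25.2% and 23.7%, and 21.2% and 18.4% in the same order. The median log2 fold changes of the list were 0.28, 0.26 and -0.04. UBE2L6, the conjugating enzyme of the ubiquitin-like protein ISG15, was higher in M1B26 than in MC26 by 1.42 (edgeR adjusted p = 1.55e-05), with means of 9.11, 8.31 and 22.2 CPM in CT, MC26 and M1B26. OAS2, an antiviral oligoadenylate synthetase, was lower in M1B26 than in MC26, at -1.35 (edgeR adjusted p = 0.0201), and its highest mean was 0.490 CPM, in MC26.

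**Figure D5:**
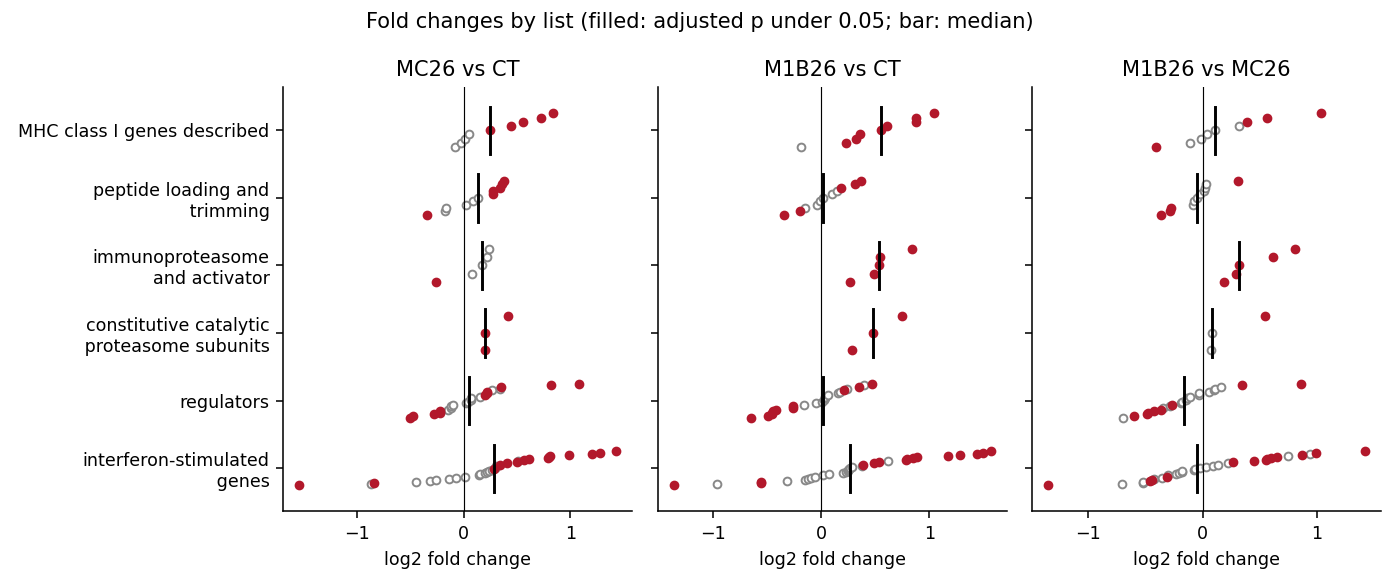
Log2 fold changes (horizontal axes) of the tested genes of 6 lists in the 3 comparisons, filled where the edgeR adjusted p was under 0.05, with a black bar at the median of each list. The immunoproteasome list and the 3 constitutive catalytic subunits lie wholly to the right of 0 in both comparisons of M1B26. Against MC26, 1 of these 3 subunits was called. The regulators and the interferon-stimulated genes spread to both sides.

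In the stretch of chromosome 6 from HLA-F to TAPBP (29723434 to 33299694), 108 tested genes other than the 7 described there gave the setting of the members. Among them 18 were higher (16.7%) and 12 lower (11.1%) in MC26 than in CT. In M1B26 against CT 23 were higher (21.3%) and 12 lower (11.1%). In M1B26 against MC26 15 were higher (13.9%) and 16 lower (14.8%). Each share was below that of all tested genes (18.8% and 19.9%, 25.2% and 23.7%, and 21.2% and 18.4%). The median log2 fold changes of these 108 genes were 0.05, 0.00 and 0.02.

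The members were compared with one another and with all genes by the root mean square difference of centred log2 CPM over the 9 libraries, as a description of likeness. The nearest member to B2M was TAP1 (0.18), and HLA-B was nearest to PSMB9 (0.17). Among 10636 genes whose mean reached 5 CPM, OSTC (0.0378), BET1 (0.0404) and GEMIN2 (0.0482) were nearest to B2M. OSTC had means of 65.2, 66.7 and 97.1 CPM in CT, MC26 and M1B26. Nearest to TAP1 were CBX8 (0.0547), KLHDC3 (0.0611) and INPP5K (0.0613), of which CBX8 and INPP5K lie on chromosome 17.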

How the data were processed

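Poly-A RNA of 9 cultures (3 each of CT, MC26 and M1B26) was sequenced in paired-end mode. The authors deposited raw read counts per gene symbol. The notes of the submitters and the methods name STAR 2.7.3a on GRCh38 and Salmon 1.1.0 on protein-coding genes, but the deposited counts were whole and covered non-coding genes. Which program counted, with which strand setting and which handling of reads with several alignments, is not given in the sources used here. Such reads bear on HLA genes and on TAP2.

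The 9 genes and every gene list were chosen with earlier results of these data known. Groups came from sample titles. Counts were fitted in R 4.3.3 with edgeR 4.0.16 (filterByExpr with a minimum count of 10, TMM factors, a quasi-likelihood fit with the line as its only term over all 9 libraries, 2-sided tests, Benjamini-Hochberg adjustment over 15717 genes, called at 0.05). The biological coefficient of variation was 10.4%. SE was the absolute log2 fold change divided by the square root of F. Ratios and orders used CPM per kilobase of the canonical transcript (GENCODE 44, read in Python 3.11.15).

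Genes named were the 9, list genes called in M1B26 against MC26 whose log2 fold change reached 1 in either direction, and PSMB5, PSMB6, PSMB7, PSMB8, PSMB10, TAPBP, ERAP1, ERAP2, IRF1, RFX5 and CIITA whatever their values, and some results covered by this rule or set beside it are not reported here. The genes most like B2M and TAP1 were those at the smallest distance, and PSME1, HLA-DRA and the marker genes were named after their values were seen. On simulated counts for M1B26 against CT (15717 genes), 50 genes were changed at each size and every gene had the same coefficient of variation. The fit recovered 14% of 1.25-fold, 54% of 1.5-fold, 84% of 2-fold and 96% of 4-fold changes. In the measured counts 7688 genes were called in that comparison, so the adjustment differs and these rates are not the sensitivity for them. Equal replicate numbers did not pair the libraries. Alternatives were total counts, RLE factors, DESeq2 1.42.0, other filters, 6 libraries only, the replicate number as a block, stricter thresholds and leaving out each library.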

Additional observations from a re-analysis of the deposited data

Results flagged for a closer look

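The difference from CT was not the same in MC26 and M1B26 in 4 of the 9 genes, by the direct edgeR test of M1B26 against MC26 in which CT cancels. In that comparison 21.2% of all tested genes were higher and 18.4% lower, so the count of 4 is near the share over all genes. The sorting, the clonal selection and the time in cytokines of M1B26 cannot be told apart in this difference. The log2 difference was 1.03 for HLA-F (edgeR adjusted p = 1.13e-04), 0.56 for B2M (edgeR adjusted p = 3.59e-04) and 0.39 for TAP1 (edgeR adjusted p = 0.00565), and all 3 M1B26 libraries were above all 3 MC26 libraries in each. For TAP2 it was -0.40 (edgeR adjusted p = 0.00656), with all 3 M1B26 libraries below those of MC26. The 4 calls held when any single library was left out, with the highest edgeR adjusted p at 0.00126, 0.00275, 0.0315 and 0.0339 in the order named.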

How the results depend on the processing

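Of 486 recomputed values of single genes, 444 kept their direction and their side of the threshold, 24 lost the call, 5 gained it and 13 turned in sign. The 13 were values near 0 and not called. They were HLA-F in MC26 against CT (-0.066 with total counts, -0.0066 with a mean of at least 50 counts, -0.096 to 0.095 leaving out 1 library), B2M there (-0.035 with total counts, -0.0065 to 0.12 leaving out 1 library), TAP1 there (-0.12 to 0.019), HLA-E in M1B26 against MC26 (-0.059 to 0.020) and PSMB9 in M1B26 against MC26 (-0.044 to 0.095).

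With glmTreat at 1.5-fold, which tests for a change beyond that size, members higher were 0 in MC26 against CT, 2 in M1B26 against CT (HLA-F and PSMB9) and 1 in M1B26 against MC26 (HLA-F), with 0 lower in the last. Other pathway genes higher were then 2, 4 and 3, and lower 2, 0 and 0. With total counts, 1 member was lower in M1B26 against CT (NLRC5, edgeR adjusted p = 0.0273, against 0.0273 to 1 over its alternatives), and 12 other pathway genes were higher in MC26 against CT in place of 19. At an adjusted p under 0.01, 10 were higher there and 5 lower in place of 9, and 4 were lower with only the 6 libraries compared. Leaving out 1 library gave 11 to 18 higher (11 without CT replicate 1) and 5 to 8 lower (5 without CT replicate 2 and without MC26 replicate 1). The cause of these differences was not tested.

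HLA-B in M1B26 against MC26 passed in 4 of 18 alternatives (adjusted p 0.00744 to 1 over edgeR and DESeq2 fits), among them the replicate block (log2 fold change 0.31, edgeR adjusted p = 0.0237). The numbers did not pair the libraries, since deviations of equal numbers correlated at -0.16 to 0.30, and with the block 5, 8 and 4 members were higher in the 3 comparisons. The shallowest library limits PSMB9, with 65 counts there.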
